A study of Mus musculus with 12 samples.

Results

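Cytosolic ribosomal proteins are the protein part of the ribosomes that translate nuclear mRNA. The genes were taken by symbol, as every name that starts with Rpl followed by a digit or p, or with Rps followed by a digit or a, without the Rps6k kinases and without names that hold -ps. The rule found 84 of the 14541 genes listed, 34 with small subunit names and 50 with large subunit names. Of these, 31 encode small subunit and 45 large subunit proteins proper. The other 8 are the paralogs Rpl36al, Rpl39l, Rpl22l1 and Rps27l, the copies Rps4l and Rpl37rt, both annotated as transcribed processed pseudogenes, and Rps19bp1 and Rpl7l1, which share the name but encode a partner of Rps19 and a relative of Rpl7. Rpl26 was not analysed here.

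The cells were microglia, the resident macrophages of the brain, taken from forebrains of wild-type mouse pups aged 7 to 9 postnatal days with beads against CD11b and plated at 40000 to 80000 per well. The 3 groups had 6 h of treatment with recombinant Hevin at 500 nM, an astrocyte-secreted matricellular protein, with lipopolysaccharide (LPS) at 50 ng/mL, a bacterial wall component sensed by Toll-like receptor 4, or with Media alone. Each group had 4 poly(A) RNA libraries, numbered 1 to 4 (column groups 4 to 7 in the deposited table). The labels leave unsaid whether different animals or wells gave the 4 libraries of a group. The p-values therefore measure the spread left between libraries once the number is fitted as a block, and this spread may be technical. The SDs printed beside them keep the differences between numbers. Values are FPKM, reads per gene length and library size. Reads recovered from them put the depth at 21389784 to 27361665 in Hevin, 19395973 to 27263115 in LPS and 18343996 to 25910349 in Media.

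The ribosome joins a small subunit, which reads the mRNA, to a large subunit, which forms the peptide bond, and each proper member is normally present once per ribosome (the stalk proteins Rplp1 and Rplp2 are present as pairs). Most ribosomal protein mRNAs of mammals start with a C followed by a run of pyrimidines, the 5′ terminal oligopyrimidine (TOP) motif, through which mTORC1 and Larp1 control their translation and stability as a group. Translation factors such as Eef1a1 carry the same motif.

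All 10 microglia markers passed the filter on low values. Their summed level was 1432 to 2014 FPKM in Hevin, 723 to 1026 FPKM in LPS and 834 to 1086 FPKM in Media, and the lowest, Tmem119, averaged 2.52, 1.12 and 1.39 FPKM. The astrocyte marker list, with 8 of 8 genes listed, 4 past the filter and Gja1 the highest, had summed levels of 21.2 to 45.5 FPKM in Hevin, 112 to 235 FPKM in LPS and 50.3 to 86.4 FPKM in Media. The endothelial and mural list ranged from 26.8 to 114 FPKM in Hevin, from 23.5 to 119 FPKM in LPS and from 23.7 to 106 FPKM in Media, and the border macrophage list, led by Pf4, from 557 to 759, from 644 to 807 and from 768 to 897 FPKM in the same order. The oligodendrocyte lineage list, with 7 of 8 genes listed and 3 past the filter, had 23.1 to 37.9 FPKM in Hevin, 8.21 to 11.002 FPKM in LPS and 11.5 to 16.1 FPKM in Media, with no overlap between groups. The part of the cells these lists mark in the results was not tested. Neuron markers stayed at or under 20.5 FPKM in all libraries, and of the lymphocyte and erythroid lists 1 gene of 5 each was listed and did not pass the filter on low values.

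Start sites were read from the RefSeq promoter table (GRCm38.p6), which held 74 windows for 63 of the 84 members. In 13 of the 74 windows (17.6%) the annotated start was a C followed by 4 pyrimidines, against 823 of all 32851 windows in the table (2.51%) and 0 of 75 windows of mitochondrial ribosomal proteins. A run of at least 8 pyrimidines lay between 5 bases before and 15 bases after the start in 29.7% of the members' windows, against 6.68% of all windows. The motif CCGGAAG, searched on both strands of the 300 bases, was in 35.1% of the members' windows, 34.7% of the mitochondrial ribosomal protein windows and 8.86% of all windows. A missing run says only that these letters are not at the annotated start, which may differ from the start used in microglia. The windows below cover 15 bases before and 15 bases from the annotated start. Capitals mark the longest pyrimidine run between 5 bases before and 15 bases after the start, where it had at least 5 bases. Pyrimidines that continue a run beyond these bounds are in lower case. The first 3 are shown as examples of a start at a C followed by pyrimidines, and the others because these 9 genes passed the test against Media in one treatment or both.
Rps6, chr4:86857353-86857382, minus strand: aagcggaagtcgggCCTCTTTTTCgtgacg
Rps18, chr17:33955651-33955680, minus strand: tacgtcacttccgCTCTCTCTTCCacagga
Rpl35, chr2:39005117-39005146, minus strand: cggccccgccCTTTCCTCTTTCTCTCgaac
Rps15a, chr7:118116133-118116162, minus strand: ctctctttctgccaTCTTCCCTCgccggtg
Rpl12, chr2:32961697-32961726, plus strand: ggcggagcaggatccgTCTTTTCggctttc
Rpl34, chr3:130730323-130730352, minus strand: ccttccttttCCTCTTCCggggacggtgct
Rpl38, chr11:114668565-114668594, plus strand: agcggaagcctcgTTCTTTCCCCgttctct
Rpl22l1, chr3:28805493-28805522, plus strand: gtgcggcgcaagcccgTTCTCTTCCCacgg
Rpl24, chr16:55966260-55966289, plus strand: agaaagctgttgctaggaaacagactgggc
Rpl9, chr5:65391417-65391446, minus strand: acgcagggccctgacggattacaagaacgt
Rpl7l1, chr17:46782642-46782671, minus strand: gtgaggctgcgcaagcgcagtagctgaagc
Rps3, chr7:99483695-99483724, minus strand: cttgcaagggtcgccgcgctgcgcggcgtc
Of these 9 genes, Rps15a and Rpl38 had a C at the start followed by 4 pyrimidines. Counted within those bounds, Rpl12, Rpl34 (the first of its 2 windows) and Rpl22l1 had runs of 7, 8 and 10 pyrimidines. Rpl24, Rpl9, Rpl7l1 and Rps3 had no run longer than 2 there. The runs of Rpl34 and Rpl9 reach further before the start than those bounds.

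Although proper members are needed in equal numbers, their deposited levels spread widely. In Media the small subunit names had a median of 25.4 FPKM, with Rps27 the lowest at 1.77 FPKM. The large subunit names ranged from 1.90 FPKM (Rpl30) to 458 FPKM (Rpl8) with a median of 20.4 FPKM. Abundant small subunit members were Rps9, at the mRNA entry, which averaged 137 ± 13.7 FPKM in Hevin, 178 ± 23.3 FPKM in LPS and 145 ± 21.02 FPKM in Media, and Rps3, a KH-domain protein also known as a partner of the NF-kB subunit RelA. The 3 highest large subunit names were Rpl8, which lies next to the peptidyl transferase centre, Rpl41, the smallest ribosomal protein, and Rpl37rt. All 84 members passed the filter of at least 1 FPKM in at least 4 libraries, but 13 had a median under 100 reads per library. Rps27 was the lowest, at 21.5 reads.

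**Figure D1:**
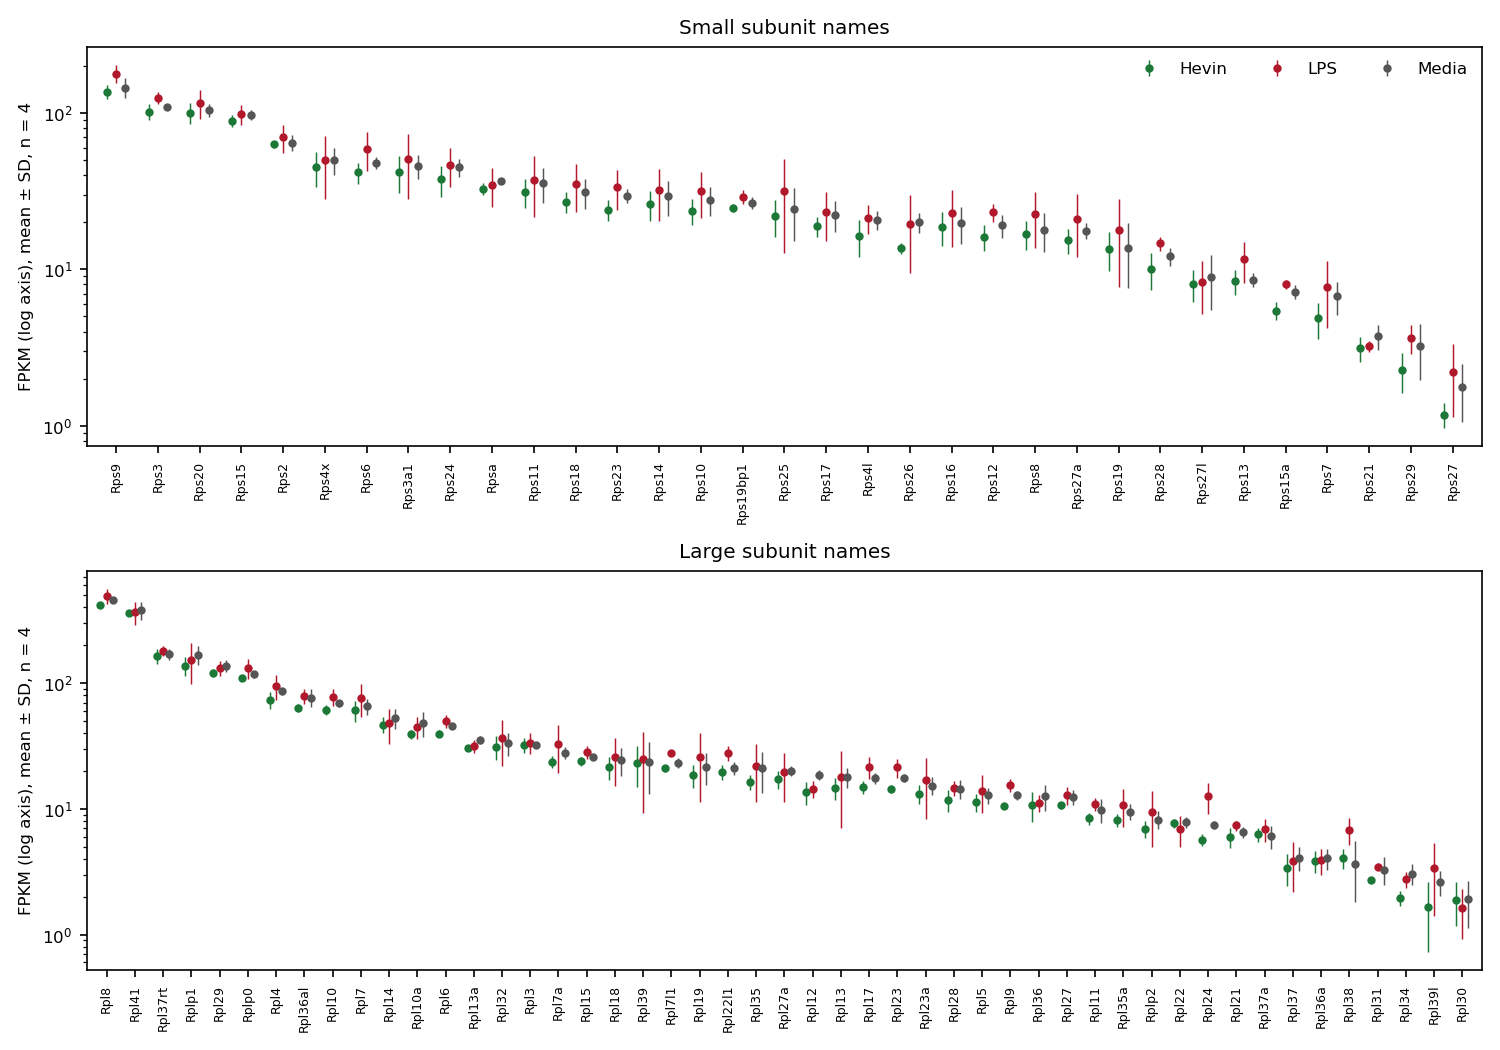
Mean level of 82 of the 84 genes in Hevin, LPS and Media (FPKM on a log axis; bars are the SD of 4 libraries), ordered by the level in Media, small subunit names above and large subunit names below. The levels in Media run from 458 FPKM (Rpl8) down to 1.77 FPKM (Rps27) and 1.90 FPKM (Rpl30).

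The level moved with gene structure. Among the 76 proper members, 28 with no exon of 200 bp or more in the chosen transcript had a median of 14.5 FPKM in Media and a highest of 49.7 FPKM. The 48 with such an exon had a median of 25.3 FPKM and reached 458 FPKM. Ribosomal protein genes have many intronless copies in the mouse genome, and 79 of the 84 had at least 1 annotated gene at least 95% identical over at least 75 bp of their coding sequence, with a median of 5 and a highest of 63 for Rpl21. Proper members with 0 or 1 such gene had a median of 69.3 FPKM in Media (n = 8), those with 2 to 9 had 21.7 FPKM (n = 46), and those with 10 or more had 18.8 FPKM (n = 22). How reads that fit several copies or span an exon junction were counted is not given in the sources used here, and the part of either in the levels was not tested.

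Several copies were listed in their own rows at higher levels than the gene they match. Rpl37rt averaged 163 ± 22.1 FPKM in Hevin, 180.3 ± 15.6 FPKM in LPS and 169.6 ± 18.1 FPKM in Media (SD, n = 4 each), while Rpl37, the multi-exon gene, averaged 3.39 ± 0.954, 3.82 ± 1.63 and 4.08 ± 0.892 FPKM. Rpl31-ps12 was 13.5, 13.1 and 12.2 times Rpl31 in Hevin, LPS and Media. The widest gap was that of Mir682, annotated as a microRNA gene and matching 96 bp of Rpl37a. Its row was 217, 221 and 228 times Rpl37a in the same order. Rps15a-ps6 and Rps15a-ps4 were 13.2 and 11.1 times Rps15a in Hevin, 12.9 and 10.3 times in LPS and 13.3 and 10.2 times in Media. Rpl14-ps1 was 5.77, 6.23 and 5.53 times Rpl14, and Gm15421 was 2.67, 2.93 and 2.98 times Rpl22l1, in that order of groups. Other copies were lower than their gene. The Rps19 copy Rps19-ps3 was at 0.426, 0.264 and 0.437 of Rps19, and Gm6654 at 0.505, 0.394 and 0.401 of Rps26. Gm4832 was at 0.0326, 0.00846 and 0.00295 of Rps24, and Wdr89 at 0.0415, 0.0141 and 0.0272 of Rplp2. BC004004 was at 1.14, 0.656 and 0.929 of Rpl21. Levels of these members are therefore uncertain, since reads may be split between a gene and its copy. FPKM also divide by gene length, so these ratios are not ratios of reads. The length behind the Rps15a values was 5134 bp, while Rps15a-ps6 and Rps15a-ps4 matched it over 393 and 390 bp. For Rpl37a that length was 588 bp. The part of length in the ratios was not tested.

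The members took 0.304% to 0.336% of the recovered reads in Hevin libraries, 0.236% to 0.365% in LPS libraries and 0.320% to 0.385% in Media libraries. Small subunit names summed to 1299 ± 114 FPKM in Hevin, 1590.0 ± 312 FPKM in LPS and 1428 ± 128 FPKM in Media. Large subunit names summed to 2188 ± 134, 2535.5 ± 444 and 2440.3 ± 164 FPKM in the same order (SD, n = 4). The SD was widest in LPS for both subunits, and the ranges of the groups overlapped. In these bulk libraries fewer cells of a type and less RNA per cell cannot be told apart.

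The wide spread in LPS came from 2 libraries that stood apart across most members. LPS 2 was the highest LPS library for 65 of the 84 members, and LPS 4 was the lowest for 67. On the log2(FPKM + 1) scale the median member lay 0.35 above its LPS mean in LPS 2 and fell by 0.30 in LPS 4, against medians of -0.07 in LPS 1 and 0.04 in LPS 3. The swing was wider for small subunit names, at 0.49 and -0.44 in LPS 2 and LPS 4, than for large subunit names, at 0.30 and -0.25. In Media the median member lay at 0.17 in Media 4 and at -0.10 in Media 2. In Hevin it lay at 0.09, 0.11, -0.14 and -0.03 in libraries 1 to 4.

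The members did not swing alike. Rpl39, which lines the exit tunnel, was measured at 17.5, 46.7, 25.7 and 10.1 FPKM in LPS 1 to 4, a ratio of 4.60 between the highest and the lowest library. Rps25, a head protein of the small subunit known for its role in internal ribosome entry, was at 26.0, 58.1, 28.4 and 13.5 FPKM, a ratio of 4.29. Rpl13 and Rps19, which is known as the gene most often mutated in Diamond-Blackfan anaemia, had ratios of 4.20 and 3.85. At the other end were Rpl7l1, Rpl31 and Rps15a, with ratios of 1.11, 1.16 and 1.17. Rps10 went the opposite way, at 27.2, 25.2, 26.8 and 46.7 FPKM in LPS 1 to 4. Over all members the median ratio was 1.40 in Hevin, 1.72 in LPS and 1.40 in Media.

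**Figure D2:**
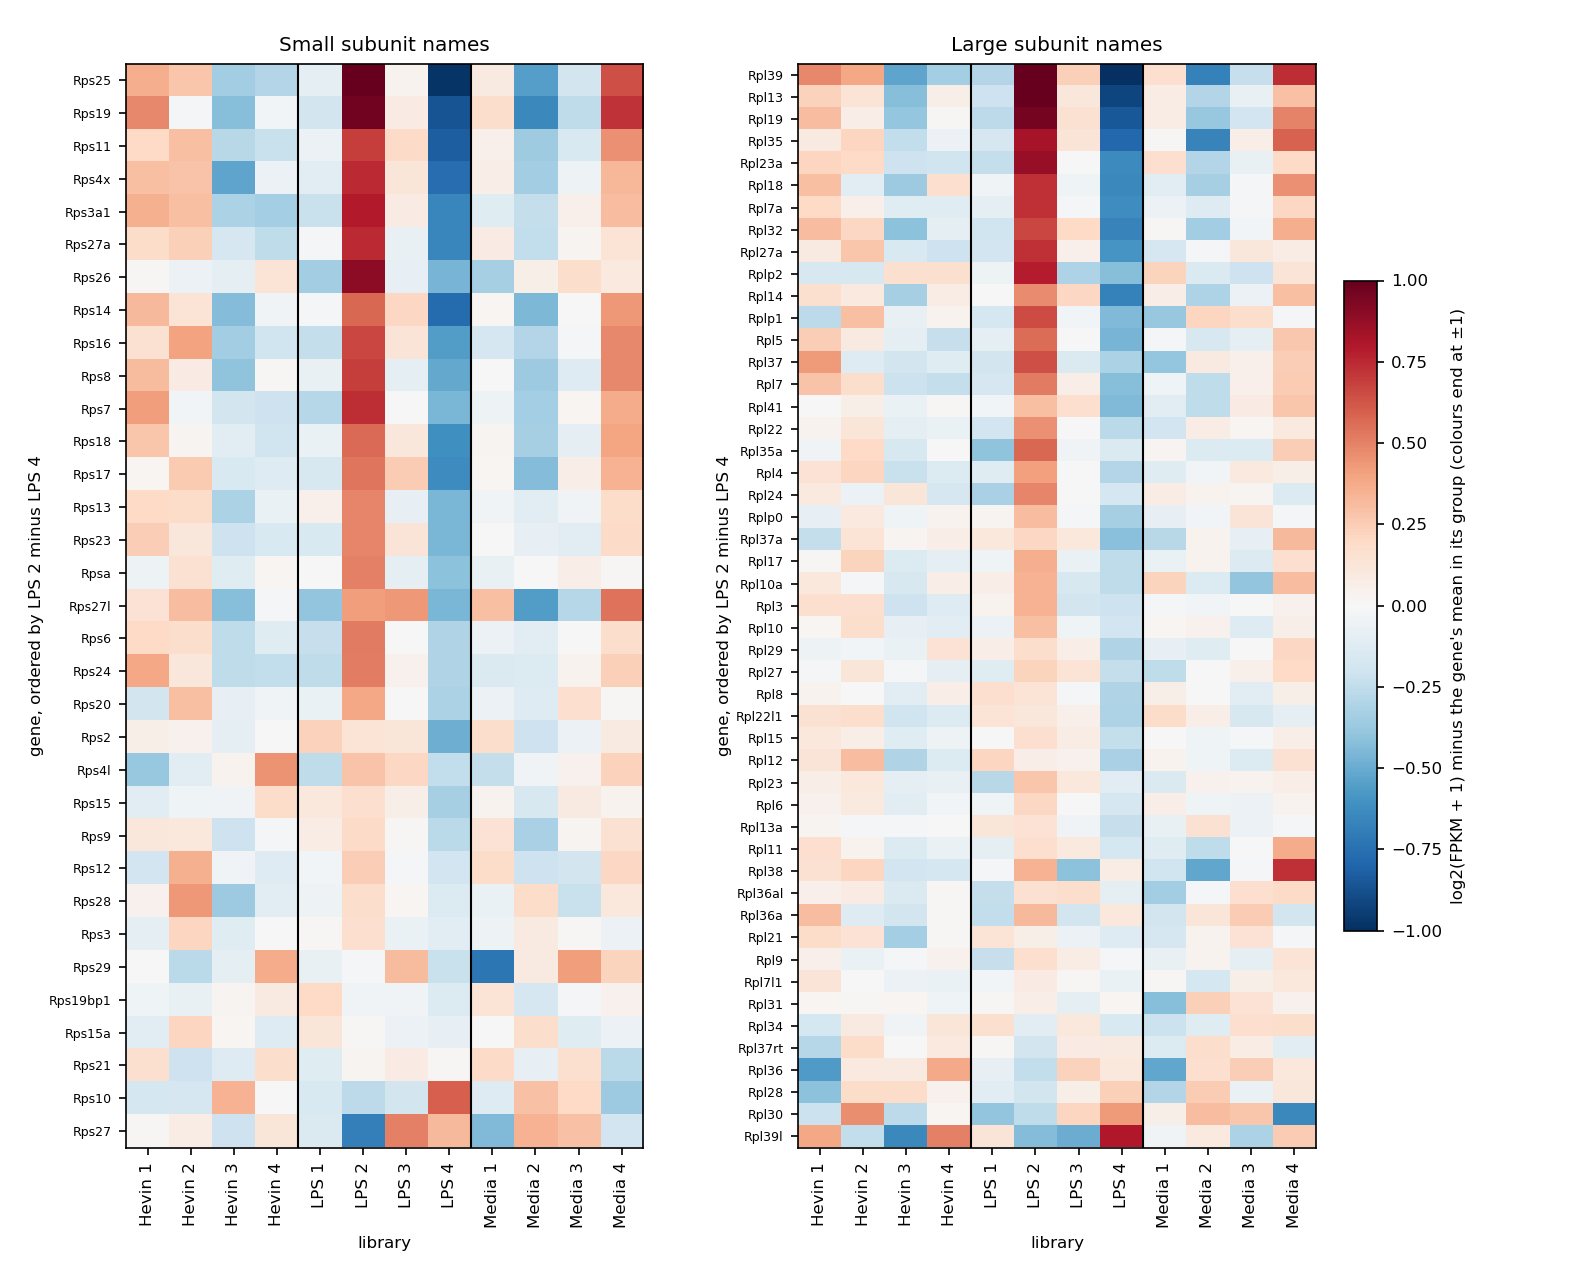
Each gene's log2(FPKM + 1) minus its own group mean, by library, for 82 of the 84 genes, small (left) and large (right) subunit names, ordered by the difference between LPS 2 and LPS 4. Most rows are red in LPS 2 and blue in LPS 4, with Rps25, Rps19, Rpl39 and Rpl13 at the top, and Rps10, Rps27 and Rpl39l at the bottom.

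Other genes moved with these libraries. A list of 17 other genes with TOP mRNAs, mostly translation factors, had medians of 0.16 in LPS 2 and -0.20 in LPS 4. Of these genes, 15 of 17 were above and 15 of 17 below their LPS mean in these libraries. The 77 mitochondrial ribosomal proteins, which build the separate ribosome of the organelle, had medians of -0.03 in LPS 2 and 0.00 in LPS 4. Ribosome biogenesis factors had 0.17 in LPS 2, -0.09 in LPS 4 (24 of 32 below) and -0.11 in LPS 3 (27 of 32 below). The depth was 24430958 reads in LPS 2 and 19395973 in LPS 4, and Media 2, with 18343996 reads, was the shallowest library. Summed astrocyte markers were lowest in LPS 2 (112 FPKM) and highest in LPS 4 (235 FPKM) within LPS. The part of depth or of these cells in the members' swing was not tested.

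Libraries of 1 number pair across groups over all genes, least so in number 4. Pairing among the members alone was not tested. A separate measure, the direction of the members' differences between groups, varied between numbers. Over all genes, deviations from the group mean in LPS 4 correlated at 0.230 with Media 4 and 0.528 with Media 3. Those in Hevin 4 correlated at 0.512 with Media 4 and 0.519 with Media 3. For Hevin against Media, 35, 44, 3 and 8 of the 84 members were higher in Hevin in numbers 1 to 4, with median log2 differences of -0.07, 0.01, -0.31 and -0.41. For LPS against Media, 56, 71, 64 and 20 members were higher in LPS, with medians of 0.08, 0.49, 0.14 and -0.40. For Hevin against LPS, 31, 6, 3 and 46 members were higher in Hevin, with medians of -0.13, -0.48, -0.47 and 0.08. Over all 11242 genes tested the same medians lay between -0.04 and 0.03. In number 4 the median member thus went the other way for LPS against Media (-0.40) and, by 0.08, for Hevin against LPS. For Hevin against Media the median in number 2 was near 0, with 44 members higher and 40 lower.

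**Figure D3:**
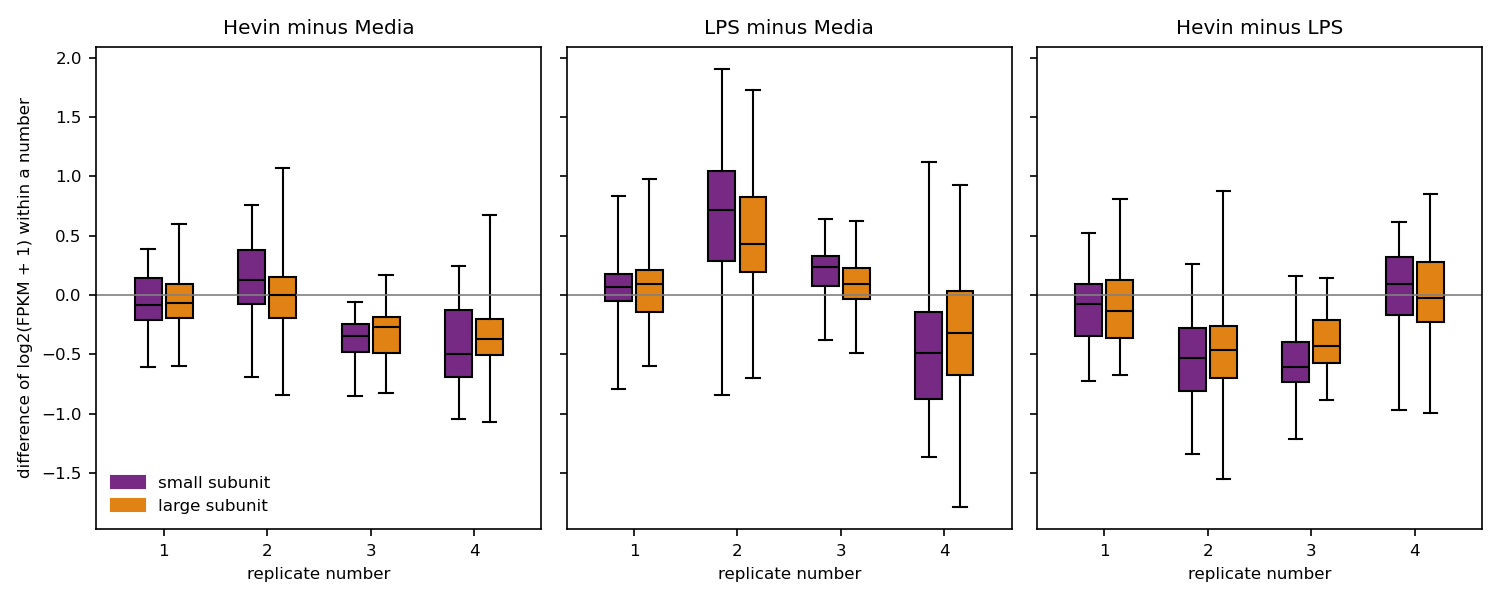
Differences of log2(FPKM + 1) between libraries of the same number, for 34 small and 50 large subunit names (boxes are quartiles with the median, whiskers reach the lowest and highest gene). In LPS minus Media the boxes lie above 0 in number 2 (medians 0.72 and 0.43) and mostly below 0 in number 4 (medians -0.49 and -0.32).

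Hevin was set against Media to see how microglia answer this secreted protein. Of the members 3 fell: Rps15a, a small subunit protein, and Rpl12 and Rpl34 of the large subunit, Rpl12 being part of the base of the stalk that recruits translation factors. None rose. That is 3.57% of the members called (limma, adjusted p under 0.05, replicate number as a block), against 21.4% of all genes tested (10.8% higher and 10.6% lower). At an unadjusted p under 0.05, 0 members were higher and 17 lower, against 1921 and 1949 of all 11242 genes tested. With limma-voom 0 members were higher and 2 lower, against 12.1% and 12.2% of all genes. The median log2 fold change was -0.17 for the small and -0.19 for the large subunit, against 0.00 over all genes tested, and 79 of the 84 were below 0.

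Rps15a was at 4.95, 6.43, 5.52 and 4.87 FPKM in Hevin 1 to 4, against 7.13, 8.17, 6.47 and 6.82 FPKM in Media 1 to 4. The groups did not overlap, and its log2 fold change was -0.34 ± 0.09 (SE, limma adjusted p = 0.0162). Its copies Rps15a-ps6 and Rps15a-ps4 averaged 72.1 ± 11.4 and 60.4 ± 8.02 FPKM in Hevin, against 94.7 ± 20.7 and 72.6 ± 18.1 FPKM in Media. Rpl34 was at 1.62, 2.15, 1.88 and 2.21 FPKM in Hevin, against 2.47, 2.70, 3.52 and 3.55 FPKM in Media, again with no overlap. Its log2 fold change was -0.45 ± 0.12 (limma adjusted p = 0.0241), on a median of only 42 reads per library. Rpl12 was at 14.7, 16.8, 10.6 and 12.1 FPKM in Hevin, against 19.0, 17.96, 16.8 and 20.8 FPKM in Media. Hevin 2 lay at the lowest Media library, and the log2 fold change was -0.45 ± 0.12 (limma adjusted p = 0.0260). All 3 were lower in Hevin in each of the 4 numbers.

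Rps26 was at 13.7, 13.0, 12.7 and 15.0 FPKM in Hevin 1 to 4, against 15.6, 20.7, 22.5 and 21.3 FPKM in Media 1 to 4. Among members that averaged at least 5 FPKM in a group, those with the largest log2 fold changes that did not pass were Rps26 (-0.51 ± 0.21, 13.6 ± 1.02 FPKM in Hevin and 20.02 ± 3.04 FPKM in Media, no overlap, limma adjusted p = 0.113), Rps7 (-0.40 ± 0.25) and Rpl24 (-0.35 ± 0.13). At the upper end, within the same limit, were Rpl37a (0.05 ± 0.15), Rps19 (0.04 ± 0.37), Rpl39 (0.01 ± 0.42) and Rpl3 (-0.01 ± 0.10). Groups did not overlap for 8 members, all lower in Hevin (9.52%), against 7.55% of all genes tested in that direction, and for 0 members higher, against 9.05%. In 23 members (27.4%) Hevin was lower in all 4 numbers, against 23.6% of all genes, and in 0 it was higher in all 4, against 23.4%. With no replicate block 0 members were called (limma), against 4.27% of all genes higher and 3.10% lower. Without Hevin 1 or without Media 4 none of these 3 passed, and without Hevin 3 or Media 3 Rps15a alone did. Without Media 4 the medians were -0.06 and -0.08, and without Media 2 they were -0.34 and -0.28. With only the 8 libraries of the comparison in the fit, 16 members were lower, against 14.7% of all genes.

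Treatment with LPS served as the known activator. Large subunit members Rpl24, Rpl38 and Rpl9, the paralog Rpl22l1, the like-named Rpl7l1 and the small subunit member Rps3 rose, and Rpl12 fell. That is 7.14% called higher and 1.19% lower, against 21.5% and 22.2% of all genes tested (43.7% in either direction). The median log2 fold change was 0.14 for the small and 0.07 for the large subunit, against -0.02 over all genes tested. Over the 4 numbers, the subunit median of the LPS minus Media differences had an SD of 0.499 for the small and 0.307 for the large subunit.

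Rpl24, a large subunit protein of the bridge to the small subunit, was at 9.62, 17.7, 12.3 and 10.8 FPKM in LPS 1 to 4, against 7.90, 7.68, 7.63 and 6.68 FPKM in Media 1 to 4. Every LPS library was above every Media library, and the log2 fold change was 0.65 ± 0.13 (limma adjusted p = 0.00250). Rpl38, the gene of the mouse mutant Tail-short, was at 6.61, 8.75, 4.76 and 7.05 FPKM in LPS, against 2.87, 2.10, 3.39 and 6.33 FPKM in Media. Media 4 lay among the LPS libraries, and the log2 fold change was 0.79 ± 0.23 (limma adjusted p = 0.0167) on a median of 42 reads. Without LPS 2 or without Media 1 Rpl38 no longer passed. Rpl22l1, a paralog that can take the place of Rpl22, was at 30.6, 30.1, 28.8 and 22.2 FPKM in LPS, against 23.9, 22.0, 18.7 and 19.5 FPKM in Media, with LPS 4 inside the Media range. Its log2 fold change was 0.39 ± 0.08 (limma adjusted p = 0.00238), while Rpl22 itself averaged 6.90 ± 1.90 FPKM in LPS and 7.85 ± 0.781 FPKM in Media (log2 fold change -0.19 ± 0.12, limma adjusted p = 0.218).

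**Figure D4:**
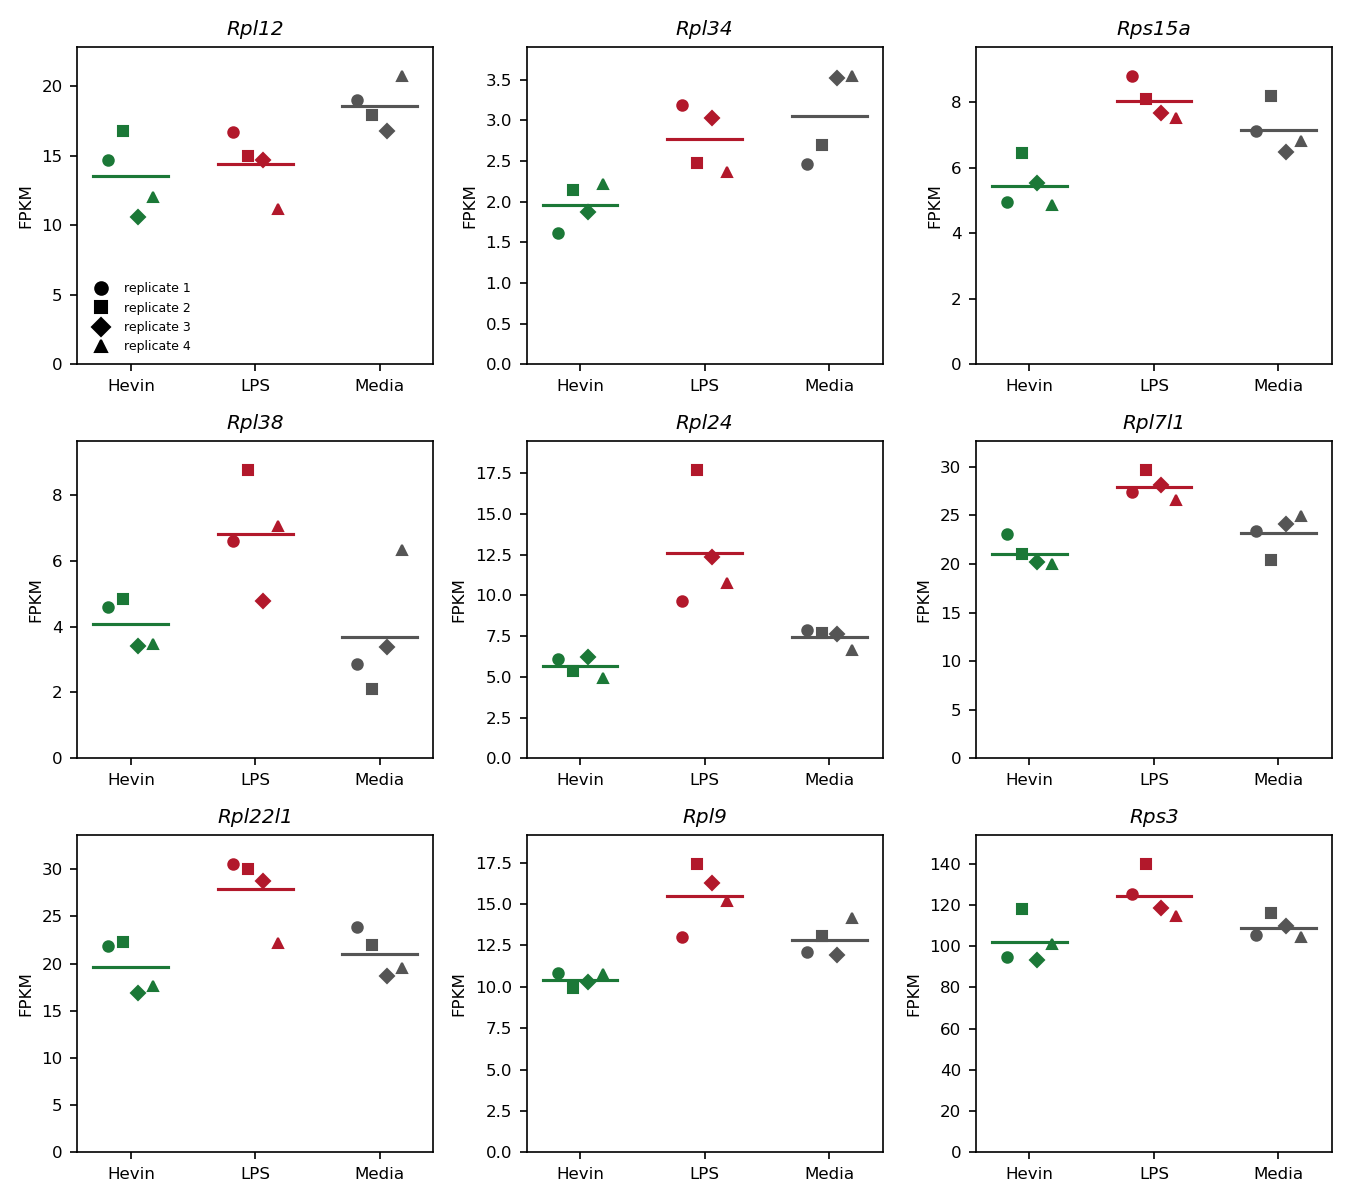
FPKM in every library for the 9 members called against Media in Hevin or LPS (symbols are replicate numbers, lines are means of 4 libraries, axes start at 0). Rpl24 is above all Media libraries in each LPS library, and Rps15a and Rpl34 are below all Media libraries in each Hevin library.

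Rpl7l1, related to a yeast factor of large subunit assembly, was at 27.4, 29.7, 28.2 and 26.6 FPKM in LPS, against 23.4, 20.4, 24.1 and 25.0 FPKM in Media, with no overlap and a log2 fold change of 0.26 ± 0.08 (limma adjusted p = 0.0224). Rpl9 averaged 15.5 ± 1.89 FPKM in LPS and 12.8 ± 1.04 FPKM in Media (log2 fold change 0.25 ± 0.09, limma adjusted p = 0.0420). Rps3 averaged 125 ± 11.1 FPKM in LPS and 109 ± 5.29 FPKM in Media (log2 fold change 0.19 ± 0.06, limma adjusted p = 0.0273). Both overlapped Media in 1 or more libraries. Rpl12 was at 16.7, 15.0, 14.7 and 11.2 FPKM in LPS, below its 4 Media values given above (the closest pair being 16.74 FPKM in LPS 1 and 16.77 FPKM in Media 3), with a log2 fold change of -0.36 ± 0.12 (limma adjusted p = 0.0374). It was the only member lower than Media in all 4 numbers under both treatments, which share the same Media libraries. Without LPS 2 the medians were -0.06 and -0.02, Rpl22l1, Rpl24, Rpl37rt and Rps27 were higher, and Rpl22, Rplp1 and Rps26 were lower. Without LPS 4 the medians were 0.27 and 0.20 and 14 members were higher, against 19.0% of all genes. With no replicate block Rpl9, Rps3 and Rpl12 no longer passed, and 4 members were higher and 0 lower, against 13.2% and 12.6% of all genes. Members with large values that did not pass were Rps13 (0.36 ± 0.16), Rpl22 (given above), Rpl14 (-0.18 ± 0.22), Rplp1 of the stalk (-0.18 ± 0.13) and Rps9 (0.30 ± 0.12).

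Groups did not overlap for 2 members higher in LPS (Rpl24 and Rpl7l1) and 1 lower, against 13.3% and 12.3% of all genes tested. These calls depend on the scaling of the libraries. The scaling factors behind the deposited FPKM, estimated here from the recovered reads, were 0.804 to 0.897 in LPS, 1.02 to 1.16 in Hevin and 1.02 to 1.11 in Media. With an equal FPKM sum per library, 0 members were higher and 27 lower in LPS, against 8.81% and 61.2% of all genes. With no scaling factors 1 was higher and 19 lower, against 9.65% and 56.3% of all genes. Those scalings moved the median of all genes to -0.34 and -0.29. Relative to it the subunit medians were 0.12 (small) and 0.05 (large) under both, 0.16 and 0.09 as deposited, and 0.02 and 0.02 with quantile normalization. They were -0.03 and 0.01 without LPS 2, and -0.01 and -0.01 without Media 2. With quantile normalization the counts were 3 higher and 10 lower, against 16.4% and 24.3% of all genes. Rpl24 kept a positive log2 fold change of at least 0.31 under every alternative, with adjusted p between 0.000754 and 0.0596, the highest with an equal FPKM sum. Rpl22l1 stayed positive too but did not pass under either rescaling (highest adjusted p 0.780).

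The direct comparison of Hevin with LPS gave the most calls. Members fell in Hevin relative to LPS, 28 of 84 (33.3%), 11 with small and 17 with large subunit names, against 28.0% of all genes tested (57.9% in either direction). None was higher (0 at an unadjusted p under 0.05, and 0 by limma-voom), against 29.9% of all genes tested. The median log2 fold change was -0.31 for the small and -0.24 for the large subunit, against 0.02 over all genes, and 79 of 84 were below 0. The share of the members called lower is near that of all genes. Groups did not overlap for 9 members, all lower in Hevin, against 17.5% of all genes tested in that direction.

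Rpl24 had the largest log2 fold change of the members, at 6.10, 5.38, 6.22 and 4.91 FPKM in Hevin 1 to 4, against its LPS values above, a log2 fold change of -1.0 ± 0.13 (limma adjusted p = 8.74e-05). It was the 1 member of the 28 whose call and direction held under every alternative run, between -1.14 and -0.62. Rpl22l1 was at 21.9, 22.3, 16.9 and 17.7 FPKM in Hevin, lower than LPS in each number, with a log2 fold change of -0.48 ± 0.08 (limma adjusted p = 0.000378). Rpl23, an intersubunit protein also known to bind Mdm2, was at 15.2, 15.6, 13.4 and 13.6 FPKM in Hevin, against 17.3, 25.8, 22.7 and 19.5 FPKM in LPS, with no overlap (log2 fold change -0.52 ± 0.10, limma adjusted p = 0.000862). Rpl9 did not overlap either, at 10.4 ± 0.434 FPKM in Hevin and 15.5 ± 1.89 FPKM in LPS (-0.52 ± 0.09, limma adjusted p = 0.000524).

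Of the small subunit, Rps15a was at 5.44 ± 0.720 FPKM in Hevin and 8.02 ± 0.574 FPKM in LPS, with no overlap (-0.49 ± 0.09, limma adjusted p = 0.000579). Rps28 averaged 10.0 ± 2.61 FPKM in Hevin and 14.6 ± 1.45 FPKM in LPS (-0.53 ± 0.11, limma adjusted p = 0.00142). Rps6, the kinase substrate used as a readout of mTORC1 activity, averaged 41.6 ± 6.46 FPKM in Hevin and 58.9 ± 16.6 FPKM in LPS (-0.47 ± 0.15, limma adjusted p = 0.0232). Among the most abundant members, Rpl8 averaged 415 ± 21.9 FPKM in Hevin and 491 ± 69.4 FPKM in LPS (-0.23 ± 0.09, limma adjusted p = 0.0421), and Rps9 137 ± 13.7 FPKM in Hevin and 178 ± 23.3 FPKM in LPS (-0.38 ± 0.12, limma adjusted p = 0.0219). Rpl41 did not pass, at 362 ± 12.7 FPKM in Hevin and 366 ± 77.3 FPKM in LPS (0.01 ± 0.15, limma adjusted p = 0.960). Of the paralogs, copies and like-named genes, 6 of 8 fell, where 28.0% of all genes tested were called lower. These were Rpl39l, a paralog of Rpl39 known from testis (-0.68 ± 0.16), Rpl22l1, Rpl7l1 (-0.39 ± 0.08), Rps4l (-0.39 ± 0.14), Rpl36al (-0.29 ± 0.11) and Rps19bp1 (-0.22 ± 0.08). Rps27l, a target of p53, was at -0.01 ± 0.29 and Rpl37rt at -0.15 ± 0.10. Rpl39l was at 2.33, 1.14, 0.627 and 2.60 FPKM in Hevin 1 to 4, on a median of 48 reads per library. The call was lost at the same sign in 13 alternatives for Rps4l, 12 for Rps19bp1 and 11 for Rpl36al. The sign turned in 1, 2 and 3 alternatives for these genes. Rpl39l, Rpl22l1 and Rpl7l1 lost the call at the same sign in 1, 2 and 1 alternatives. The sign of Rpl7l1 also turned in 1 alternative, to 0.02 with an equal FPKM sum per library.

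The direction of the medians and most calls again changed with the scaling. Among members that averaged at least 5 FPKM in a group, those at the upper end as deposited were Rpl22 (0.16 ± 0.12), Rpl39 (0.03 ± 0.42) and Rpl14 (0.01 ± 0.22), and at the lower end Rpl38 (-0.61 ± 0.23, limma adjusted p = 0.0406) and Rps7 (-0.52 ± 0.25, limma adjusted p = 0.0969). With an equal FPKM sum per library 12 members were higher in Hevin and 2 lower, against 62.0% and 10.8% of all genes, and the medians were 0.11 and 0.16 where all genes had 0.38. With no scaling factors 3 were higher and 2 lower, against 56.5% and 12.5% of all genes, with medians of 0.04 and 0.09 and 0.32 over all genes. Relative to all genes the members stayed lower, by -0.27 and -0.22 with equal sums and by -0.33 and -0.26 as deposited. Leaving out LPS 4 gave 41 lower, against 26.6% of all genes. Leaving out LPS 2 gave 18 lower and 1 higher, against 27.5% and 29.2%. With no replicate block 15 were lower, against 19.7%. In 26 members (31.0%) Hevin was lower than LPS in all 4 numbers, against 30.5% of all genes.

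**Figure D5:**
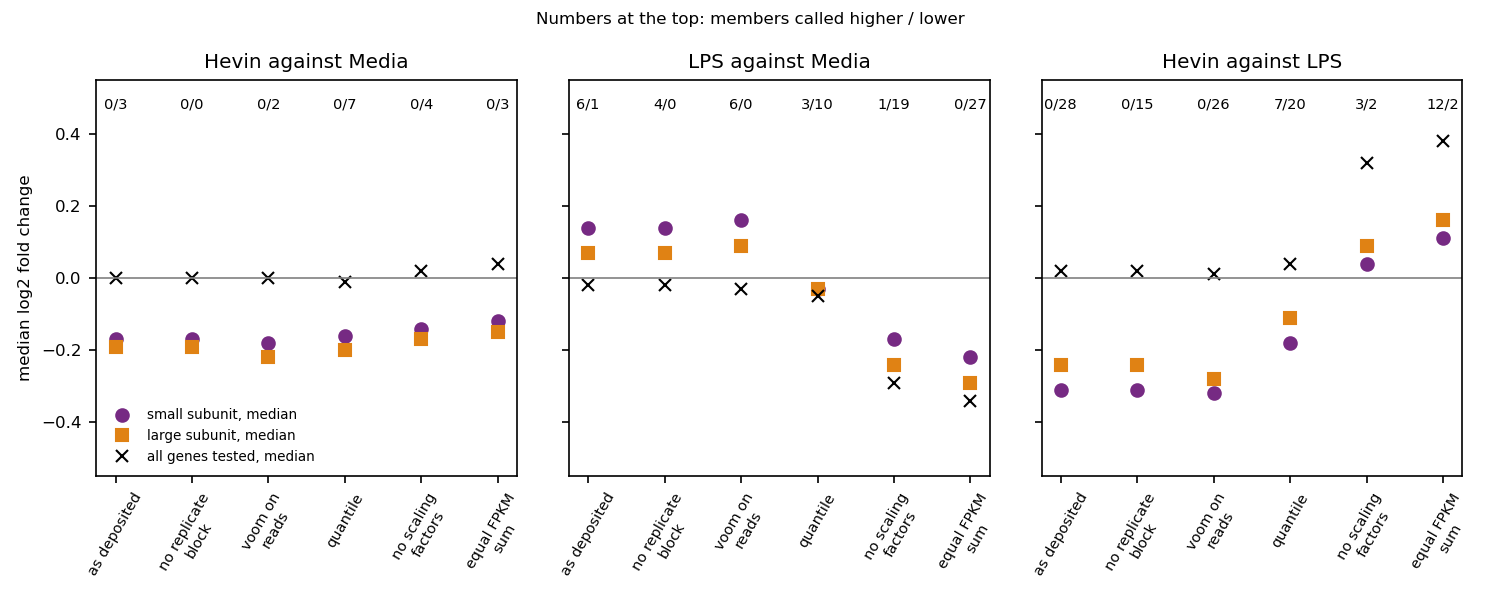
Median log2 fold change of the small and large subunit names and of all genes tested, under the deposited scaling and 5 alternatives, with the number of members called higher and lower at the top of each panel. In both comparisons with LPS the medians change sign with no scaling factors or equal FPKM sums, and all genes shift the same way.

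Genes that serve the ribosome were followed as lists. Their results, and those of the mitochondrial genes below, are given for the deposited scaling only, on which the LPS calls of the members depended. The list of 17 other genes with TOP mRNAs holds mostly translation factors, but also Hnrnpa1, Nap1l1, Tpt1, Naca and Btf3, which are not. It had 0 higher and 2 lower in Hevin against Media, Eef1b2 and Nap1l1. Eef1b2, an exchange factor of the elongation factor Eef1a1, averaged 62.5 ± 4.33 FPKM in Hevin and 72.0 ± 4.19 FPKM in Media (log2 fold change -0.20 ± 0.05, limma adjusted p = 0.0227). In LPS against Media 4 were higher and 0 lower. Pabpc1, the poly(A)-binding protein, averaged 161 ± 29.8 FPKM in LPS and 110 ± 4.39 FPKM in Media (0.53 ± 0.08, limma adjusted p = 0.000459), and Eef1a1 1979 ± 113 FPKM in LPS and 1632 ± 92.3 FPKM in Media (0.28 ± 0.06, limma adjusted p = 0.00468). In Hevin against LPS 0 were higher and 8 lower. The share called was 11.8%, 23.5% and 47.1% in these comparisons, against 21.4%, 43.7% and 57.9% of all genes tested. The median log2 fold changes of the list were -0.18, 0.13 and -0.29 in these comparisons.

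Of 32 ribosome biogenesis factors, which process ribosomal RNA and assemble subunits, 1 was higher and 8 lower in Hevin against Media (25.0% lower, against 10.6% of all genes), and 7 higher and 3 lower in LPS against Media (21.9% higher, against 21.5%). In Hevin against LPS 1 was higher and 14 lower (43.8% lower, against 28.0% of all genes). Nop58, a core protein of the small nucleolar particles that methylate ribosomal RNA, averaged 25.3 ± 4.25 FPKM in Hevin, 47.8 ± 5.12 FPKM in LPS and 34.4 ± 5.23 FPKM in Media. It fell in Hevin (-0.43 ± 0.11, limma adjusted p = 0.0194) and rose in LPS (0.47 ± 0.11, limma adjusted p = 0.00601). The 13 genes of RNA polymerase I and its factors had 0 higher and 2 lower in Hevin and 4 higher and 1 lower in LPS against Media, and 1 higher and 5 lower in Hevin against LPS. The share called was 15.4%, 38.5% and 46.2%, against 21.4%, 43.7% and 57.9% of all genes tested. Taf1d was lower in Hevin than in Media (-0.45 ± 0.08, limma adjusted p = 0.00170). The 8 chaperones of ribosomal proteins had 2 lower in Hevin (Tsr2 and Ltv1, limma), 0 calls in LPS against Media (1 at an unadjusted p under 0.05) and 2 lower in Hevin against LPS. The lower share was 25.0% against 10.6% of all genes in Hevin against Media, and 25.0% against 28.0% in Hevin against LPS.

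Of 16 genes that control TOP mRNAs or mTORC1, 1 was higher and 4 lower in Hevin, 4 higher and 3 lower in LPS against Media, and 2 higher and 8 lower in Hevin against LPS. The share called was 31.2%, 43.8% and 62.5% in these comparisons, against 21.4%, 43.7% and 57.9% of all genes. Larp1, which binds the TOP motif, averaged 60.7 ± 7.18 FPKM in LPS and 41.0 ± 4.48 FPKM in Media (0.55 ± 0.06, limma adjusted p = 5.27e-05). Ddit4, an inhibitor of mTORC1, averaged 44.0 ± 12.6 FPKM in LPS and 14.9 ± 4.89 FPKM in Media (1.51 ± 0.20, limma adjusted p = 0.000122). Sesn2, another mTORC1 inhibitor, averaged 46.3 ± 5.93 FPKM in Hevin and 64.7 ± 11.9 FPKM in Media (-0.47 ± 0.06, limma adjusted p = 0.000445), and Myc, a driver of ribosome biogenesis, 15.1 ± 2.21 FPKM in Hevin and 24.9 ± 5.93 FPKM in Media (-0.67 ± 0.13, limma adjusted p = 0.00374).

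The 77 mitochondrial ribosomal proteins, set beside the cytosolic ones, had 2 higher and 1 lower in Hevin against Media, 3 higher and 18 lower in LPS against Media, and 22 higher and 9 lower in Hevin against LPS. The share called was 3.90%, 27.3% and 40.3%, against 21.4%, 43.7% and 57.9% of all genes tested. Of these genes 23.4% were lower in LPS against Media (22.2% of all genes), and 28.6% higher in Hevin against LPS (29.9% of all genes). Their median log2 fold changes were 0.02, -0.13 and 0.13, against -0.18, 0.11 and -0.26 for all 84 cytosolic genes. Mrpl52 averaged 27.8 ± 3.85 FPKM in LPS and 14.2 ± 2.42 FPKM in Media (0.93 ± 0.10, limma adjusted p = 3.53e-05), and Mrps35 1.80 ± 0.507 FPKM in LPS and 3.18 ± 0.612 FPKM in Media (-0.58 ± 0.10, limma adjusted p = 0.000600). A difference between the cytosolic and mitochondrial genes was not tested.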

How the data were processed

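Gene levels were measured by stranded poly(A) RNA-seq (100 ng RNA, pairs of 100 bp reads, per the labels' protocols). Per the submitters' processing notes, the build was mm10 and the tools included Bowtie2 2.3.5.1 with Trimmomatic 0.39, featureCounts, Subread 1.6.3 and edgeR 3.30.3, with no roles stated, and the annotation is not given in the sources used here. The deposited table, made by the authors, gives FPKM for 14541 genes in 12 libraries. Whole reads were recovered from its steps in all 14541 rows (within 0.1 of a whole number).

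The 11242 genes that reached 1 FPKM in 4 or more libraries were fitted with limma 3.58.1 (R 4.3.3) on log2(FPKM + 1) over all 12 libraries, with the replicate number as a block and a trend. P-values were adjusted by Benjamini-Hochberg, threshold 0.05. Fold changes on this scale understate those of low genes. The fit was tested on simulated data. The block rests on deviations from group means over all genes, which correlated in all 12 same-number pairs (0.230 to 0.784), against -0.592 to 0.528 in the 36 pairs of different numbers. LPS 4 correlated more with Media 3 (0.528) and Hevin 3 (0.520) than with Media 4 (0.230). The members, lists and tests were chosen with earlier results of these data known. Genes named were the 4 highest and 4 lowest log2 fold changes per comparison (at least 5 FPKM in 1 group), the 3 most abundant names of each subunit, paralogs, and, of each list, genes among those with the smallest p, mostly given as mean ± SD. Other members called were named after their values were seen. Exons and copies came from GENCODE M21 (GRCm38), start windows from RefSeq (GRCm38.p6). Alternatives were other pseudocounts, filters, scalings, limma-voom, no block, 8 libraries, proper members alone, and leaving out libraries; leaving out all 3 libraries of a number was added after seeing the data. Depth was 18343996 to 27361665 reads, and 13 members had under 100 reads at the median, which limits their precision. Results on some genes are not reported here, though the genes stay in counts and medians.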

Additional observations from a re-analysis of the deposited data

How the results depend on the processing

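Percentages in brackets are the shares of all genes tested called in the same direction in the same run. For Hevin against Media, members called lower numbered 3 as reported (10.6%), 0 with no replicate block (3.10%) and 7 with quantile normalization (11.3%). They numbered 16 with the 8 libraries of the comparison alone (14.7%) and 1 to 5 when each library was left out (6.48% to 8.74%). Leaving out all 3 libraries of number 2, 3 or 4, chosen after seeing the data, gave 6, 0 and 1 (8.64%, 4.90% and 7.52%). For LPS against Media, 6 higher and 1 lower (21.5% and 22.2%) became 0 and 27 with equal FPKM sums (8.81% and 61.2%) and 1 and 19 with no scaling factors (9.65% and 56.3%). They became 3 and 10 with quantile normalization (16.4% and 24.3%), and 3 and 0 with 8 libraries (18.4% and 17.8%). With no replicate block 4 were higher and 0 lower (13.2% and 12.6%), and with limma-voom 6 and 0 (21.7% and 22.4%). Leaving out each library gave 2 to 14 higher (17.4% to 21.2%) and 0 to 3 lower (17.2% to 21.5%). Leaving out numbers 1 to 4 gave 4, 3, 3 and 12 higher (17.0%, 20.5%, 16.9% and 17.9%) and 0, 3, 0 and 0 lower (17.9%, 20.7%, 15.0% and 16.3%). The small and large subunit medians turned to -0.22 and -0.29 with equal sums, -0.17 and -0.24 with no scaling factors, and -0.03 and -0.03 with quantile normalization. For Hevin against LPS, 28 lower (28.0%) became 15 with no replicate block (19.7%) and 14 without number 3 (23.2%). When each library was left out, 15 to 41 were lower (24.8% to 27.5%) and 0 to 1 higher (25.9% to 29.2%). Equal sums gave 12 higher and 2 lower (62.0% and 10.8%, medians 0.11 and 0.16), and no scaling factors 3 and 2 (56.5% and 12.5%, medians 0.04 and 0.09). Quantile normalization gave 7 higher and 20 lower (29.7% and 23.5%, medians -0.18 and -0.11). The replicate block was used because same-number libraries deviated together. Call and direction held under every alternative run for 0 of 3, 0 of 7 and 1 of 28 members (Rpl24), and under those that keep the deposited scaling for 0, 2 and 12. The cause was not tested.

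Sign changes are given for genes called as reported, and for genes picked for naming in that comparison and called under the alternative. Those of genes called under neither are not listed. Other members that turned sign are not listed either, such as Rpl6, called lower in LPS than in Media with equal FPKM sums. With an equal FPKM sum per library, log2 fold changes that turned sign for LPS against Media were -0.10 (Rpl7l1), -0.10 (Rpl9), -0.19 (Rps3), -0.29 (Rpl8), -0.29 (Rpl37rt), -0.34 (Rpl36al), -0.24 (Rps19bp1). On reads with no scaling factors, log2 fold changes that turned sign for LPS against Media were -0.06 (Rpl7l1), -0.06 (Rpl9), -0.14 (Rps3), -0.24 (Rpl8), -0.24 (Rpl37rt), -0.29 (Rpl36al). With quantile normalization, log2 fold changes that turned sign for LPS against Media were -0.23 (Rps3), -0.50 (Rpl8), -0.32 (Rpl37rt). With an equal FPKM sum per library, log2 fold changes that turned sign for Hevin against LPS were 0.14 (Rpl36al), 0.18 (Rpl15), 0.20 (Rpl8), 0.19 (Rps19bp1), 0.02 (Rpl7l1), 0.10 (Rpl6), 0.02 (Rps4l), 0.05 (Rps9), 0.09 (Rpl28), 0.14 (Rps3), 0.08 (Rpl4), 0.09 (Rpl10), 0.28 (Rpl37rt). On reads with no scaling factors, log2 fold changes that turned sign for Hevin against LPS were 0.07 (Rpl36al), 0.11 (Rpl15), 0.12 (Rpl8), 0.12 (Rps19bp1), 0.03 (Rpl6), 0.03 (Rpl28), 0.06 (Rps3), 0.01 (Rpl4), 0.02 (Rpl10). With quantile normalization, log2 fold changes that turned sign for Hevin against LPS were 0.06 (Rpl36al), 0.41 (Rpl8), 0.16 (Rps9), 0.18 (Rps3), 0.03 (Rpl4), 0.01 (Rpl10), 0.38 (Rpl37rt).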
